A study of Rattus norvegicus with 12 samples.

Results

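Interferons switch on a set of antiviral genes in almost every cell of the lung. Infected or damaged cells release type I and type III interferon, the receptors signal through JAK kinases to a transcription factor complex that includes STAT2 and IRF9, and this complex binds a short DNA element, the interferon-stimulated response element (ISRE), in front of its target genes. The products block viral replication in different ways, and some of them feed back on the pathway itself. These genes also move without infection, with the level of tonic interferon and with the immune cells present in the tissue.

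The 10 genes described here are Ifit1, Ifit2, Ifit3, Mx1, Mx2, Isg15, Irf7, Rsad2, Oasl and Usp18, taken by name from a table of 23096 rat genes. All 10 have a row, 9 have reads, and those 9 passed the filter on low counts, so that 9 of the 14517 genes tested are described with a fold change. Isg15 (ENSRNOG00000069527), which encodes a ubiquitin-like protein that is attached to other proteins after interferon, had 0 counts in all 12 libraries. A count of 0 allows up to 3 counts, which is between 0.186 and 0.218 CPM (read counts scaled by library size) depending on the library and covers counting error only. How reads that match more than 1 place were counted is not given in the sources used here, so the 0 is not read as absence of the transcript, and its level is not described further.

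RNA from lungs with bronchi was sequenced in 2 groups of 6 rats, labelled as male Sprague Dawley animals aged 8 weeks and weighing 300 g. The DA rats received 2,3-butanedione (diacetyl, a butter flavouring compound) at 125 mg/kg through the trachea once a day for 7 days, and the lungs were taken 24 hours after the last dose. The control rats received sterile distilled water by the same route, on a schedule that the sources used here do not give. The study takes the treatment as a rat model of bronchiolitis obliterans, and the comparison asks how the lung transcriptome differs after it. Nothing beyond the replicate numbers says how the rats were housed or processed, and the tissue is a mixture of cells, in which fewer cells of a type and less RNA per cell cannot be told apart.

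Library totals ran between 13723207 and 16271842 counts. Reads of Y-linked genes went against the label in 6 of the 12 libraries: their summed level was at least 148.6 CPM in DA replicates 1 to 4 and control replicates 1 and 2, and at most 0.653 CPM in DA replicates 5 and 6 and control replicates 3 to 6. The presence of Y-linked reads therefore differed between groups (4 of 6 DA libraries and 2 of 6 control libraries), and the number of called genes in each list below is also given with a term for it. Control replicate 6 and DA replicate 5, both without Y-linked reads, stood above the rest of their groups in most of the genes described here. Surfactant, club cell and endothelial markers, which check the labelled tissue, summed to between 11570 and 40430 CPM in DA libraries and between 25120 and 34670 CPM in control libraries. The DA sums thus reached both below and above all control sums, so the make-up of the tissue may differ between libraries.

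Ifit1 fell in the DA lungs, and it was the only one of the 9 genes in which the groups did not overlap. Oasl fell too, by a smaller margin and with less certainty. Ifit3 had a fold change of a similar size to Oasl that missed the threshold, and Ifit2, Mx1, Mx2, Irf7, Rsad2 and Usp18 were not called in either direction. Of the 9, then, 2 were called lower and 0 higher (edgeR's quasi-likelihood test, Benjamini-Hochberg adjusted p below 0.05), against 7.51% of all tested genes called lower and 8.45% called higher. With a term for Y-linked reads 1 was called lower and 0 higher. At an unadjusted p under 0.05, 3 of the 9 were lower and 0 higher, against 2160 lower and 2721 higher among all 14517 genes tested. DESeq2, limma and voom called 0 of the 9 higher. The median log2 fold change (DA over control) of the 9 was -0.21, against 0.03 over all genes tested. The genes were picked with earlier results of these data known, so these counts describe them and test nothing about them as a group.

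Ifit1 (ENSRNOG00000019050) encodes a protein that binds viral RNA with foreign 5′ ends and keeps it from being translated. It had 5.43, 3.79, 21.0, 1.66, 5.36 and 2.97 CPM in DA replicates 1 to 6. The control replicates 1 to 6 had 40.6, 66.4, 36.1, 25.96, 28.6 and 120.9 CPM. Every DA library lay below every control library, a separation in that direction seen in 2.93% of the genes tested. DA replicate 3 stood well above the other DA libraries and close to the lowest controls. On average Ifit1 had 6.71 ± 7.16 CPM in DA lungs and 53.1 ± 36.2 CPM in control lungs (SD, n = 6 each). It fell by 2.98 ± 0.60 (SE) on the log2 scale, 7.90-fold, with an adjusted p of 0.0091 in edgeR. With a term for Y-linked reads the log2 fold change was -3.18 (adjusted p = 0.0185, where 3.94% of all genes were called lower). It was -3.67 within the libraries without Y-linked reads (2 DA and 4 control, adjusted p = 0.0313) and -2.75 within those with them (4 DA and 2 control), where the call was lost (adjusted p = 0.501) and 0 genes of the whole table were called lower.

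Ifit2 and Ifit3 lie in the same gene family, and their proteins form complexes with IFIT1. Ifit3 (ENSRNOG00000022839) ranged over 15.1, 18.9 and 84.5 CPM in DA libraries (lowest, median and highest) and over 37.9, 67.1 and 166 CPM in control libraries. The highest DA value was that of replicate 5, and the other 5 DA libraries, at 25.4 CPM or less, lay below all controls. The log2 fold change was -1.39 ± 0.46 and missed the threshold in edgeR (adjusted p = 0.0568). Without DA replicate 5 it was -2.04 (adjusted p = 0.00484), and without control replicate 6 it was -1.04 (adjusted p = 0.127). DESeq2, limma on FPKM and voom also called it lower. Ifit2 (ENSRNOG00000036604) ranged over 34.3, 60.6 and 109.2 CPM in DA libraries and 51.9, 57.8 and 126 CPM in control libraries. These ranges overlapped almost fully, with a log2 fold change of -0.15 ± 0.29 (adjusted p = 0.744), which was 0.10 without control replicate 6. Among the 3 family members, then, Ifit1 was called, Ifit3 was near the threshold and Ifit2 lay near 0. The differences between these fold changes were not tested.

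One further family member, Ifit1bl (ENSRNOG00000036603), was looked at after the values were seen. It had 36.5 ± 22.4 CPM in DA lungs and 104 ± 38.3 CPM in control lungs (SD, n = 6 each), a log2 fold change of -1.50 ± 0.39 (adjusted p = 0.0242 in edgeR). Control replicate 2 had 32.4 CPM of Ifit1bl, the lowest control value, although its Ifit1 was the second highest, at 66.4 CPM. How the authors' counting treated reads that match several family members is not given in the sources used here, so counts of Ifit1 and Ifit1bl, of Mx1 and Mx2, and of Oasl and Oasl2 could in part be shared.

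Oasl (ENSRNOG00000001187) is related to the enzymes that make 2′-5′ oligoadenylate but lacks that activity in human, and its mouse counterpart Oasl1 restrains the translation of Irf7. It had 10.5, 6.67, 6.52, 4.78, 18.6 and 6.14 CPM in DA replicates 1 to 6. The control replicates 1 to 6 had 16.4, 15.3, 17.4, 14.3, 15.6 and 41.8 CPM. All DA libraries but replicate 5 lay below every control, and the controls other than replicate 6 were close to each other. Oasl averaged 8.87 ± 5.13 CPM in DA lungs and 20.2 ± 10.6 CPM in control lungs and fell by 1.18 ± 0.36 on the log2 scale, 2.27-fold (adjusted p = 0.0437 in edgeR). The call held without DA replicate 5 (-1.54, adjusted p = 0.0121). It was lost without any 1 of the other 11 libraries, at adjusted p between 0.0503 and 0.093, and with the Y-linked term (-1.0, adjusted p = 0.0921). DESeq2, limma on FPKM and voom also called Oasl lower, and over all 22 alternatives the call held in 5.

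**Figure D1:**
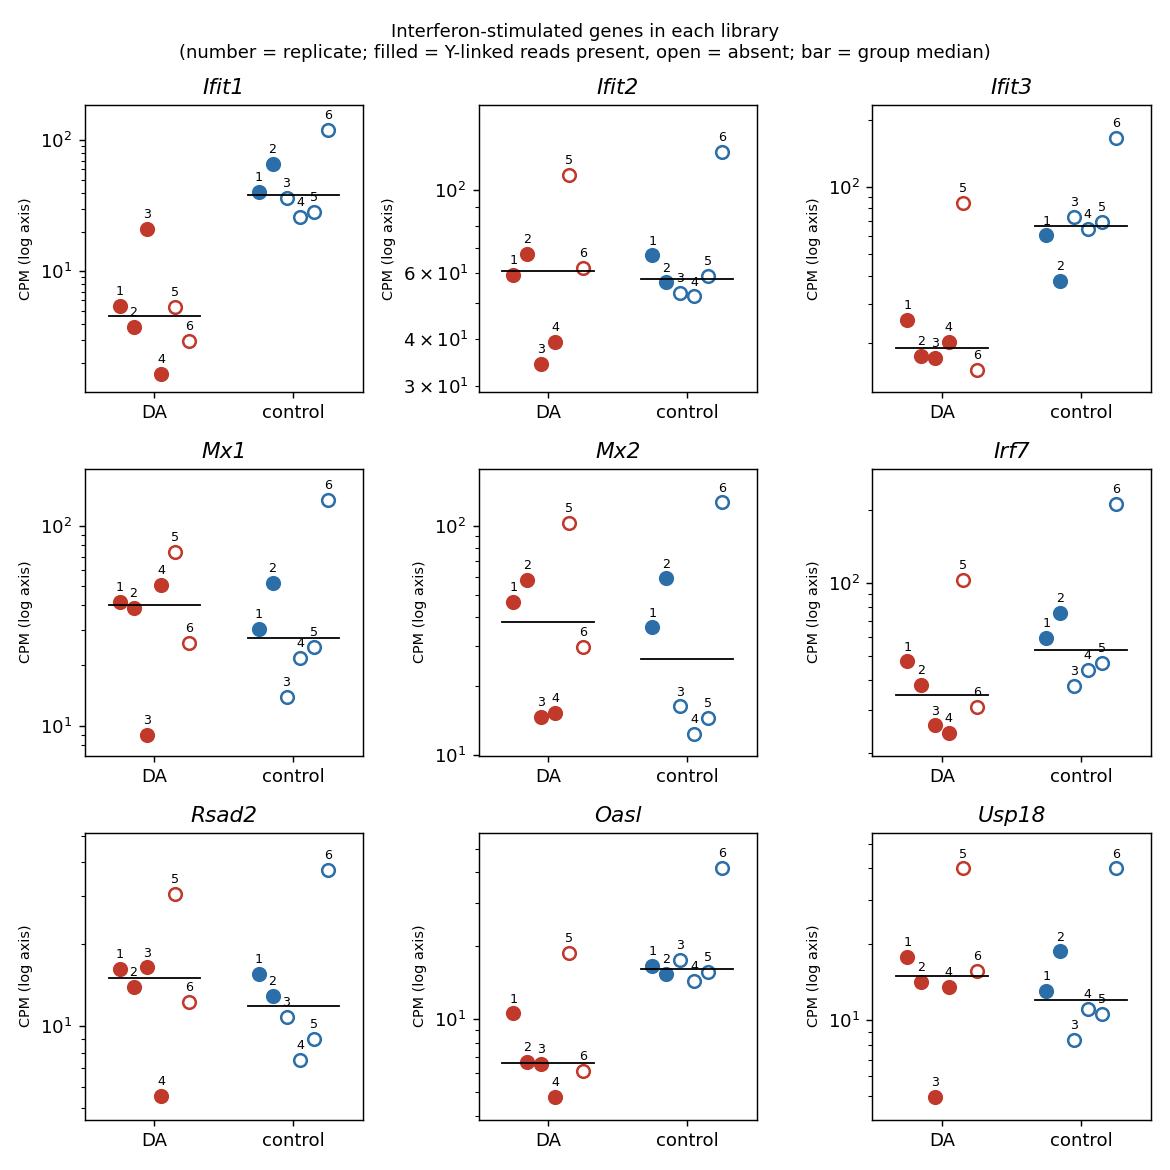
CPM (log axis) of the 9 measured interferon-stimulated genes in each library, DA at the left and control at the right of each panel; numbers are replicates, bars are medians, and open symbols are libraries without Y-linked reads. The 6 DA libraries lie below the 6 controls in Ifit1 only. DA replicate 5 is the highest point of its group in 8 of the 9 panels, and control replicate 6 of its group in 9.

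Irf7, the transcription factor that amplifies interferon production, and Usp18, the protease that removes ISG15 and damps signalling at the type I receptor, regulate the pathway itself. Irf7 (ENSRNOG00000017414) ranged over 24.1, 34.5 and 103 CPM in DA libraries and 37.6, 53.1 and 212 CPM in control libraries. The groups overlapped, although 5 of 6 DA libraries lay below the control median. The log2 fold change was -0.82 ± 0.47 (adjusted p = 0.239), and it was -1.25 without DA replicate 5 (adjusted p = 0.0672) and -0.24 without control replicate 6 (adjusted p = 0.685). Usp18 (ENSRNOG00000037198) ranged over 4.99, 14.97 and 40.0 CPM in DA libraries and 8.34, 12.1 and 40.0 CPM in control libraries. DA replicate 5 and control replicate 6 shared the top value in CPM, and the log2 fold change was 0.06 ± 0.46 (adjusted p = 0.941).

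The remaining effectors were not called. Mx1 and Mx2 encode dynamin-like GTPases that trap incoming viral particles. Mx1 (ENSRNOG00000001959) ranged over 8.98, 40.2 and 74.4 CPM in DA libraries and 13.9, 27.6 and 135 CPM in control libraries (log2 fold change -0.21 ± 0.55, adjusted p = 0.826). Mx2 (ENSRNOG00000001963) ranged over 14.7, 38.2 and 102.9 CPM in DA libraries and 12.4, 26.2 and 126 CPM in control libraries (log2 fold change 0.01 ± 0.62, adjusted p = 0.991). Rsad2 (ENSRNOG00000007539), whose product viperin makes a nucleotide that stops viral polymerases, ranged over 5.55, 15.1 and 30.6 CPM in DA libraries and 7.503, 11.9 and 37.4 CPM in control libraries (log2 fold change 0.03 ± 0.42, adjusted p = 0.971). In all of these the DA median was above the control median, while the means were drawn up by 1 library in each group. Standard errors of 0.42 to 0.62 leave room for differences of either sign, so the missed thresholds do not show that the groups were alike. Without control replicate 6 the log2 fold changes of Mx1, Mx2, Rsad2 and Usp18 were 0.48, 0.68, 0.49 and 0.51, none called, and without DA replicate 5 they were -0.48, -0.42, -0.27 and -0.35.

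Per unit of length, in FPKM, Irf7 had the highest mean of the 9 in both groups, at 22.4 ± 14.97 FPKM in DA lungs and 39.3 ± 32.8 FPKM in control lungs (SD, n = 6 each). In control lungs Ifit3 was within the SD of it, and Ifit3 was above Irf7 in control replicates 1, 3, 4 and 5. Ifit1 ranked last in DA lungs, at 1.20 ± 1.27 FPKM, and 6 of 9 in control lungs, at 9.56 ± 6.51 FPKM. In control lungs Oasl, Mx2, Ifit1 and Usp18 lay between 9.54 and 10.1 FPKM, closer together than their SDs. In DA lungs Usp18 and Mx2, at 10.1 and 9.82 FPKM, were likewise within their SDs of each other. Ifit3 held 14.8 ± 13.4 FPKM in DA lungs and 38.2 ± 21.4 FPKM in control lungs, and Ifit2 held 18.2 ± 7.82 FPKM in DA lungs and 20.1 ± 8.24 FPKM in control lungs.

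Single libraries stood out within both groups. Control replicate 6 was the highest of all 12 libraries in 8 of the 9 genes and level with DA replicate 5 in Usp18 (40.0 CPM in both). It exceeded the median of the other controls by a factor of between 2.23 (Ifit2) and 7.75 (Mx2), and in Irf7 by a factor of 4.53. DA replicate 5 was among the 2 highest of all 12 in 8 of the 9 genes and lay above control replicates 1 to 5 in the same 8. It exceeded the median of the other DA libraries by a factor of between 1.41 (Ifit1) and 4.83 (Ifit3). Ifit1 was the exception, since DA replicate 5 had 5.36 CPM of it, below every control. As a measure of the common movement, the mean deviation of the 9 genes from their own group means, on the log2 scale, was 1.19 in DA replicate 5 and 1.49 in control replicate 6, and between -0.64 and 0.24 in the other 10 libraries.

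With control replicate 6 and DA replicate 5 both set aside, a choice made after seeing the data, 3 genes had groups that did not overlap, a separation with DA below control seen in 4.59% of the genes tested on those libraries. Ifit1 then had 6.97 ± 7.97 CPM in DA lungs and 39.5 ± 16.1 CPM in control lungs (SD, n = 5 each), with a log2 fold change of -2.501 (adjusted p = 0.034 in edgeR). Ifit3 had 19.1 ± 3.99 CPM in DA lungs and 61.1 ± 13.8 CPM in control lungs (-1.68, adjusted p = 0.00418). Oasl had 6.93 ± 2.15 CPM in DA lungs and 15.8 ± 1.17 CPM in control lungs (-1.19, adjusted p = 0.0115). These 3 were called lower in that fit, where 4% of all genes were. Both libraries were set aside for their high values of these very genes, which by itself narrows the spread, so this count is no independent result. Irf7 stayed uncalled there (-0.66, adjusted p = 0.0861), as did Ifit2, Mx1, Mx2, Rsad2 and Usp18.

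**Figure D2:**
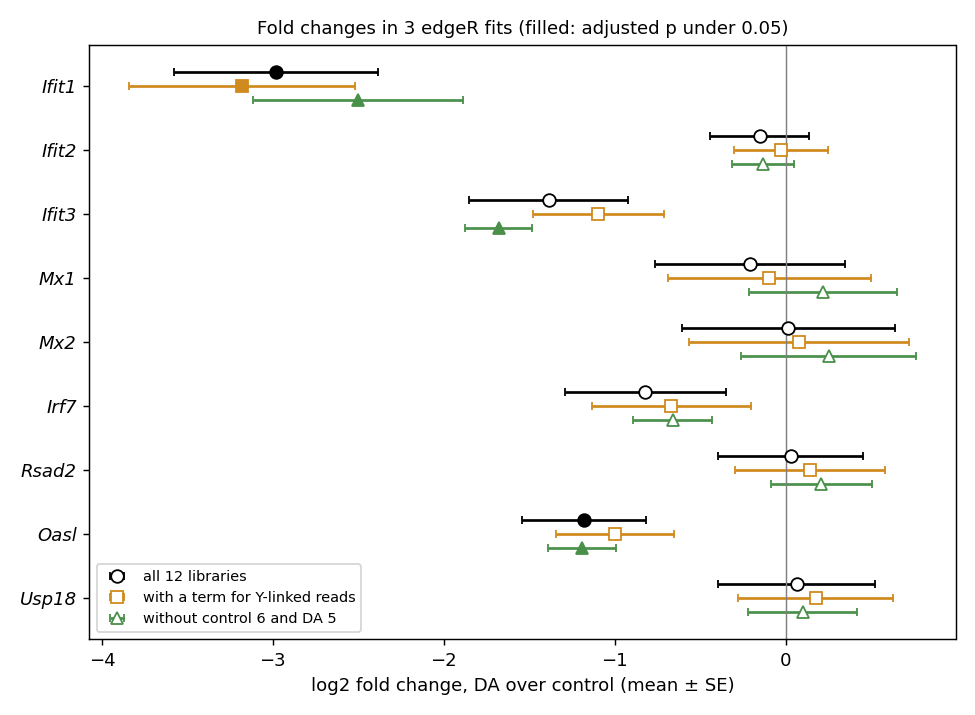
Log2 fold changes (DA over control, ± SE) of the 9 genes in 3 edgeR fits: all 12 libraries, with a term for Y-linked reads, and without control replicate 6 and DA replicate 5; filled symbols passed an adjusted p of 0.05. Ifit1 is filled in all 3 fits, at -2.98, -3.18 and -2.501, Oasl in the first and the last, and Ifit3 in the last only.

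Other genes followed the same movement by library. Each tested gene's log2 CPM was centred within its group and compared over the 12 libraries with the mean of the 9. The 10 genes closest to it had Pearson's r of 0.93 to 0.97, a description of likeness over libraries that share 2 extreme members. They were Parp12, Lgals9, Stat2, Xaf1, Dhx58, RT1-S3, Oas1k, Eif2ak2 and 2 entries with clone names. Of these, 4 (Parp12, Lgals9, Xaf1 and Eif2ak2) stand in the list of other type I interferon-stimulated genes used below, and Stat2 and Dhx58 stand in the lists of signalling proteins and sensors. Parp12 had 75.7 CPM in DA replicate 5 and 84.6 CPM in control replicate 6, against means of 50.5 CPM in DA lungs and 56.7 CPM in control lungs. Stat2, a subunit of the complex that binds the ISRE, had 132 CPM in DA replicate 5 and 180 CPM in control replicate 6, against group means of 104 CPM in DA lungs and 125 CPM in control lungs. None of the 10 was called between DA and control, and the lowest adjusted p among them was 0.0839 for RT1-S3, a class I MHC gene. Oas1k stands on 2 rows of the table, and the row meant here is ENSRNOG00000033220, which is not the row used in that list. Without control replicate 6 and DA replicate 5, the r of these 10 lay between 0.73 and 0.94. Among the 9 genes themselves, r with the mean of the other 8 was highest for Irf7, at 0.99, and lowest for Ifit1, at 0.32, and without those 2 libraries 0.97 for Irf7 and -0.07 for Ifit1.

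**Figure D3:**
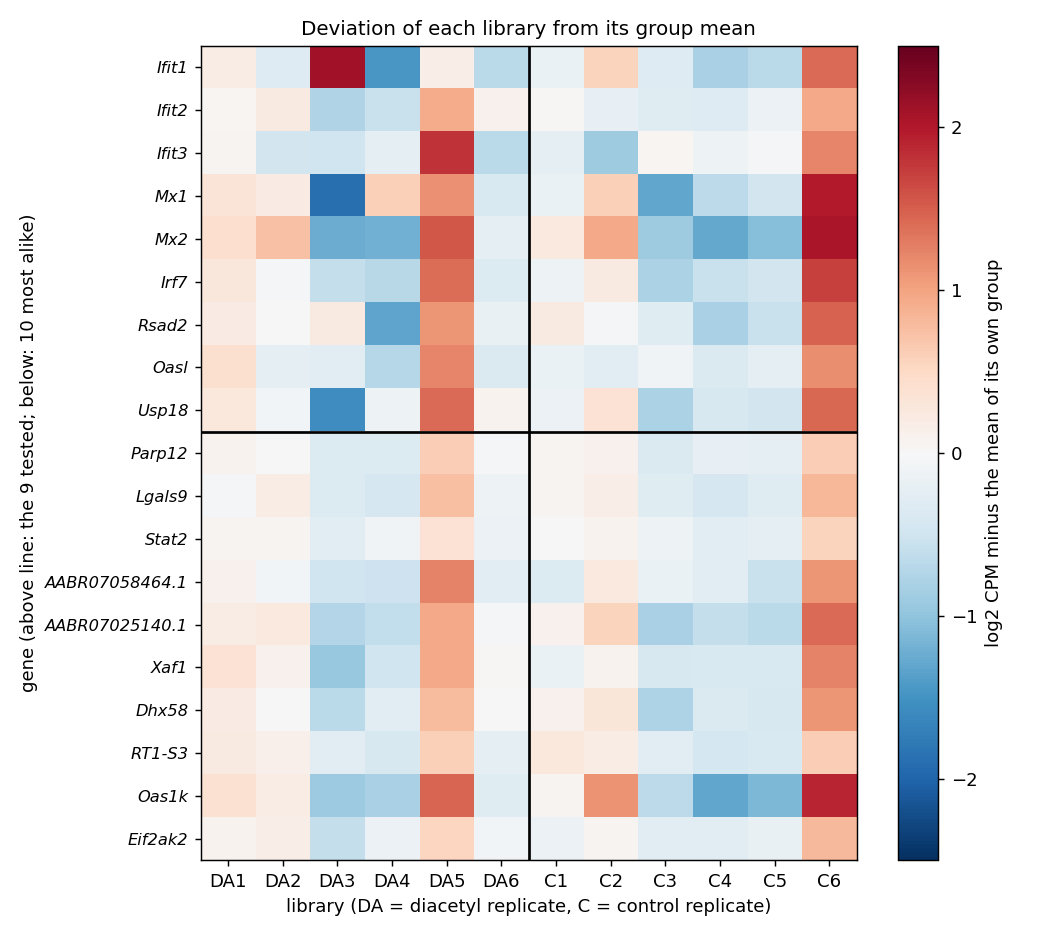
Deviation of log2 CPM from the mean of its own group, for the 9 genes (above the line) and the 10 genes most like their mean (below it), in the DA libraries (left) and the control libraries (right); red is higher and blue is lower than the group mean. DA replicate 5 and control replicate 6 are red in almost every row, while Ifit1 is highest in DA replicate 3.

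The promoters were searched because most of the 9 genes moved together by library. RefSeq promoter sequences (build GRCr8, while the counts were made on mRatBN7.2) were matched by symbol for 5 of the 10 genes, Ifit3, Irf7, Rsad2, Mx1 and Oasl, and the 250 bases before the start were searched for the ISRE core GAAANNGAAA on both strands. It was found in 3 of the 5, against 3.41% of 33469 promoters of the same length. The 3 with the core are printed 5′ to 3′ on the gene's strand, with the match in capitals, and that of Oasl is printed beside them because Oasl was called and holds no match. In each of the 3 the match lies on the opposite strand and so reads as the reverse complement, beginning 44 bases before the start in Ifit3, 69 in Irf7 and 147 in Rsad2. A match is no proof of a binding site, and a window without one says only that these letters are not in it.
Ifit3, chr1:241527076-241527325, plus strand: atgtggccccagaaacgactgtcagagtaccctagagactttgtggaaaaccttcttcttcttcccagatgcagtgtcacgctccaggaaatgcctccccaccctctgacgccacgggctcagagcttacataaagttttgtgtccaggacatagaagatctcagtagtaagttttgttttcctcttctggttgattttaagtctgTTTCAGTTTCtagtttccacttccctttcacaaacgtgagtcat
Irf7, chr1:205800024-205800273, minus strand: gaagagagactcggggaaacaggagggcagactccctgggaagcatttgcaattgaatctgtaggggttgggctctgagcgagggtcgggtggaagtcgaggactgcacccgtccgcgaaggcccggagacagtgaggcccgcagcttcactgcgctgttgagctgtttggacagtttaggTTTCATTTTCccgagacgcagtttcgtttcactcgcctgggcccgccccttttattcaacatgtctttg
Rsad2, chr6:48788121-48788370, minus strand: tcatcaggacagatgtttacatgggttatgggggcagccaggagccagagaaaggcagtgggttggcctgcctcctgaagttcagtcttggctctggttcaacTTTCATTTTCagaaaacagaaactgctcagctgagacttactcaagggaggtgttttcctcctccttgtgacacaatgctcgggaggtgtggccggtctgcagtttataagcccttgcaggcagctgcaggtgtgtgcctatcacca
Oasl, chr12:47356293-47356542, minus strand: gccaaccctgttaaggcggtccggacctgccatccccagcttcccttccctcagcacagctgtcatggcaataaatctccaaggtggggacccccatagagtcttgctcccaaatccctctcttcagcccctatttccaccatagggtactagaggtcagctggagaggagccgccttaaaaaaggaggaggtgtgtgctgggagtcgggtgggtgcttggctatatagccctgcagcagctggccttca

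Ifit1 parted from the other genes within single libraries. The ratio of its FPKM to that of another of the 9 in the same library does not depend on the library's depth. The log2 ratio of Ifit1 to Irf7 was -4.59, -4.79, -1.77, -5.32, -5.72 and -4.84 in DA replicates 1 to 6. In control replicates 1 to 6 it was -2.01, -1.65, -1.52, -2.22, -2.18 and -2.28. DA replicate 3 lay among the controls, and the other 5 DA libraries lay far below them. The same held for 7 of the 8 partner genes: DA replicate 3 lay within the control range and the other 5 DA libraries below it. For the eighth, Rsad2, all 6 DA libraries lay below the controls, with DA replicate 3 the nearest, at -0.78 against a lowest control of 0.24. All 8 ratios share Ifit1, which was itself lower in every DA library than in every control. They therefore largely repeat that fall and are not 8 separate results, and no share over other gene pairs is given here. Control replicate 6, with the highest Ifit1, had a log2 ratio of -2.28 to Irf7, the lowest of the controls, and of 0.55 to Rsad2, within their range. In DA replicate 3 the partners differed: Mx1, Ifit2 and Usp18 had their lowest value of all 12 libraries there, at 8.98, 34.3 and 4.99 CPM, while Rsad2, at 16.4 CPM, was higher in just 2 other libraries.

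**Figure D4:**
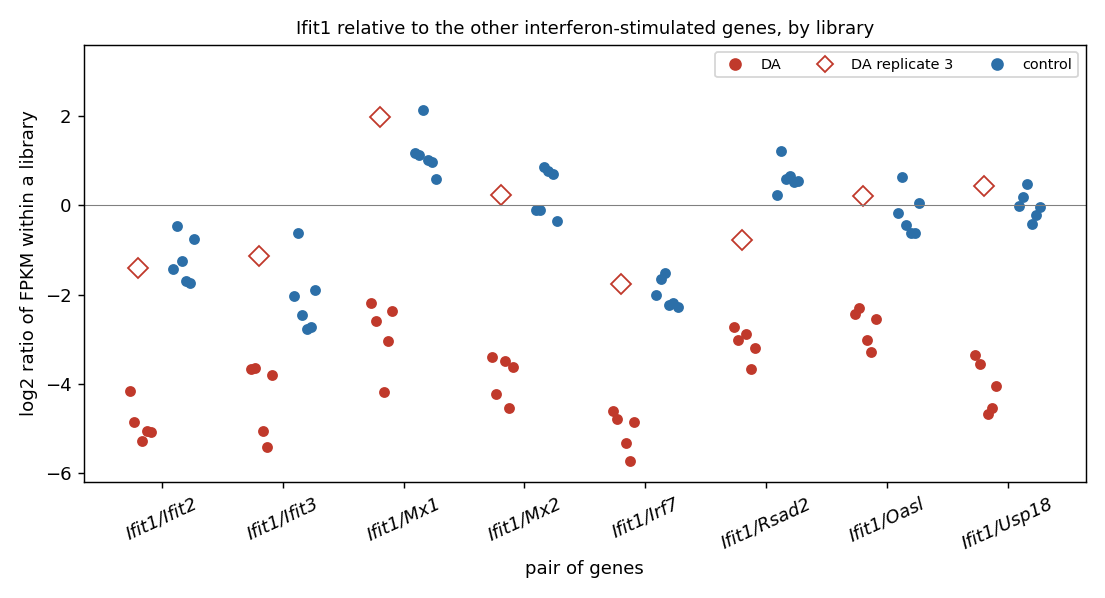
Log2 ratio of the FPKM of Ifit1 to that of each of the other 8 genes within a library, DA libraries at the left of each pair and control libraries at the right; the open diamond is DA replicate 3. The other 5 DA libraries lie below all controls for each of the 8 partners, at -4.59 or lower for Irf7. All 8 ratios share Ifit1, itself lower in every DA library than in every control.

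Upstream of these genes, the interferons themselves were near or below detection. Of 13 ligand entries 8 had a row and 0 passed the count filter. Ifnb1, the main type I interferon of tissue cells, had 1 count in DA replicate 6 and 0 counts in the other 11 libraries. Ifng, the interferon of T and NK cells, had between 1 and 12 counts in DA libraries and between 0 and 7 in control libraries. Differences in interferon transcripts were therefore not detectable at this depth.

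The receptors and the JAK-STAT proteins carry the signal to the nucleus. Of 10 such genes tested, 2 were called lower and 0 higher, and the median log2 fold change was -0.23. The receptor-bound kinase gene Tyk2 fell by 0.41 ± 0.11 (adjusted p = 0.025), with 52.7 ± 6.19 CPM in DA lungs and 70.0 ± 9.48 CPM in control lungs (SD, n = 6 each). Jak2 fell by 0.31 (adjusted p = 0.034). The type I receptor subunit genes Ifnar1 (-0.33, adjusted p = 0.099) and Ifnar2 (-0.22, adjusted p = 0.118) and Stat2 (-0.26, adjusted p = 0.24) were not called. Irf9 had at most 8 counts in any library and stayed below the filter; as for Isg15, the handling of reads with several matches is not known here, so its level is not read. The number lower was 0 with a term for Y-linked reads, with the replicate block, with limma and without control replicate 4, so that neither Tyk2 nor Jak2 was called there. It was 1 without DA replicate 1, 3 or 6 or control replicate 1, 5 or 6, and 3 without DA replicate 4.

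Of 14 tested sensors of foreign nucleic acid and their adaptors, 2 were called lower and 0 higher, with a median of -0.29. Tlr8, an endosomal sensor of single-stranded RNA, fell by 0.84 ± 0.23 (adjusted p = 0.0274), with 45.1 ± 14.6 CPM in DA lungs and 80.8 ± 21.8 CPM in control lungs. Trim25, a ubiquitin ligase that acts on RIG-I, fell by 0.49 (adjusted p = 0.0374). The RNA sensor genes Ddx58, which encodes RIG-I, and Ifih1, which encodes MDA5, were not called (-0.12 and -0.45, adjusted p = 0.756 and 0.16). The number of sensors lower was 1 with a term for Y-linked reads, 0 without DA replicate 1 or 3 or control replicate 5 or 6, 1 without DA replicate 5 or 6 or control replicate 3 or 4, and 3 without control replicate 1. Of 15 interferon regulatory factors and kinases of the induction pathway, 2 were lower and 1 higher, with a median of -0.09. Tbk1, the kinase that activates IRF3, fell by 0.34 (adjusted p = 0.0244), and Irak1, a kinase of Toll-like receptor signalling, rose by 0.27 (adjusted p = 0.0255). Irf3 was not called (-0.04, adjusted p = 0.885). With a term for Y-linked reads 0 of the 15 were lower and 0 higher. The number lower was 0 without control replicate 4, 5 or 6, 1 without DA replicate 1, 3, 5 or 6 or control replicate 2, and 5 without DA replicate 4. The number higher was 0 without DA replicate 1 or 3 or control replicate 2, 4 or 5. It was also 0 with the replicate block, so that Irak1 was not called in any of these fits.

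Of 52 other type I interferon-stimulated genes tested, 9 were called lower and 0 higher, with a median of -0.15. Ifitm2, a membrane protein gene that hinders viral fusion, fell by 0.51 (adjusted p = 0.0231), with 92.3 ± 10.3 CPM in DA lungs and 131.7 ± 25.8 CPM in control lungs (SD, n = 6 each). Oas3, one of the oligoadenylate synthetases and named after its values were seen, had 13.2, 15.3, 9.85, 5.99, 24.2 and 12.5 CPM in DA replicates 1 to 6. The control replicates 1 to 6 had 13.7, 22.1, 28.3, 46.3, 49.2 and 91.5 CPM. It fell by 1.63 ± 0.43 (adjusted p = 0.0257), although the groups overlapped through control replicates 1 and 2, the controls with Y-linked reads. The fold change of Oas3 with a term for those reads is not given here. Not called were Oas1a (-0.32, adjusted p = 0.574), Oas2 (-0.50, adjusted p = 0.678), the viral tether gene Bst2 (-0.34, adjusted p = 0.274) and Eif2ak2, the gene of the kinase PKR (0.15, adjusted p = 0.664). The count was 3 lower and 0 higher with a term for Y-linked reads, 3 lower and 2 higher without control replicate 6, and between 0 and 12 lower over all alternatives. It was 2 lower without DA replicate 1 or control replicate 3, 3 lower without DA replicate 3 or 6 or control replicate 4, and 5 lower without control replicate 2.

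Of 23 tested genes typical of the interferon gamma response, 1 was called lower and 0 higher, with a median of -0.15. That gene was Tap2, a subunit of the peptide transporter for class I MHC, which fell by 0.57 ± 0.12 (adjusted p = 0.012), with 62.6 ± 12.02 CPM in DA lungs and 92.7 ± 6.90 CPM in control lungs. The count was also 1 lower with a term for Y-linked reads and on leaving out any 1 library. Within the libraries without Y-linked reads 0 were lower and 1 higher, and within those with them 0 were lower and 0 higher. The chemokine gene Cxcl10 was not called (0.01, adjusted p = 0.992). Among the controls it was highest in replicate 6, at 17.6 CPM, as the antiviral genes were. Among the DA libraries it parted from most of them, with 4.003 CPM in replicate 5 and its highest value, 21.8 CPM, in replicate 1. Of 21 negative regulators, 1 was lower and 1 higher, with a median of -0.10. Samhd1, which breaks down nucleotides and is also among the 9 called in the list of type I genes, fell by 0.67 (adjusted p = 0.032), and Ptpn2, a phosphatase that acts on JAK and STAT proteins, rose by 0.33 (adjusted p = 0.0358). With a term for Y-linked reads 0 were lower and 1 higher. The number lower was 0 without DA replicate 1, 3 or 6 or control replicate 3, 4, 5 or 6, 2 without DA replicate 2 or control replicate 2, and 5 without DA replicate 4. The number higher was 0 without DA replicate 1, 5 or 6 or control replicate 1, 2, 3, 4 or 5. It was also 0 with the replicate block and with no filter, so that Ptpn2 was not called in any of these fits. These counts stand beside the 7.51% of all genes called lower and 8.45% called higher, and whether any list differs from the rest of the genes was not tested.

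**Figure D5:**
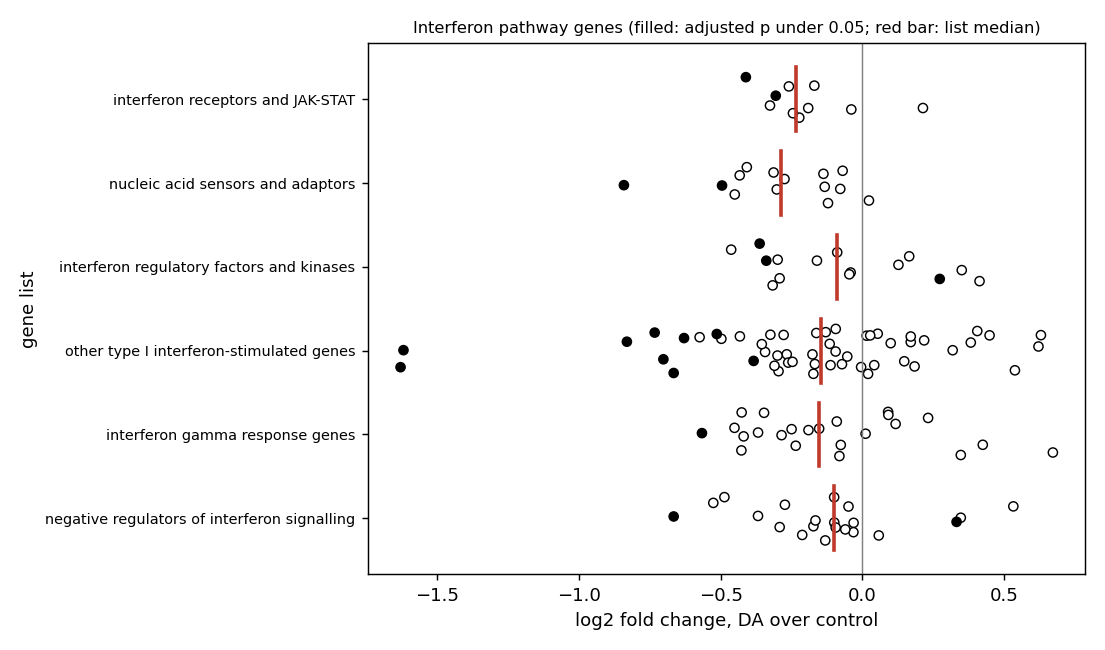
Log2 fold changes (DA over control) of the tested genes in 6 lists of the interferon pathway, 1 point a gene; filled points passed an adjusted p of 0.05 and red bars are list medians. The medians lie between -0.29 and -0.09, and the 2 points farthest to the left are Oas3 and Oas1k (row ENSRNOG00000062846).

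Some markers of immune cells differed between the groups as well, and their counts stand beside the same 7.51% of all genes called lower. Of 13 tested neutrophil markers, 5 were lower and 0 higher, and their summed level ran between 492 and 884 CPM in DA libraries and between 577 and 2811 CPM in control libraries. The log2 fold change was above 0 in 2 of the 13, Ngp and Camp (1.66 and 0.24, adjusted p = 0.1025 and 0.774 in edgeR). S100a8 and S100a9 were lower but not called (adjusted p = 0.135 and 0.083). These 4 genes were named after their values were seen. Itgal and Cxcr2, the 2 genes of this list with the lowest adjusted p, fell (log2 fold changes -0.74 and -1.92, adjusted p = 0.00572 and 0.00883). Cxcr2 had 63.65 and 33.8 CPM in control replicates 1 and 2, the controls with Y-linked reads, against 122 to 221.9 CPM in the other controls. Which cells carried Itgal cannot be told from whole tissue, so its fall is not read as one of neutrophils. Of the neutrophil markers, the number lower was 3 with a term for Y-linked reads, 3 without DA replicate 1, 3, 5 or 6 or control replicate 3, 4 or 5, and 9 without control replicate 2. Of 14 T and NK cell markers 6 were lower and 0 higher, with sums of 128 to 292 CPM in DA libraries and 234 to 480 CPM in control libraries. The cytotoxic granule genes Gzmm and Prf1 fell (log2 fold changes -1.57 and -1.252, adjusted p = 0.0055 and 0.0134). For the T and NK cell markers the number lower was 2 with a term for Y-linked reads, 2 without control replicate 4 and 11 without DA replicate 4.

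Of 16 monocyte and recruited macrophage markers 2 were lower and 0 higher, Csf1r and Itgam (-0.63 and -1.02, adjusted p = 0.0106 and 0.0319). Their sum was mostly the lysozyme gene Lyz2, which was not called (-0.04, adjusted p = 0.927), at 6662 to 20790 CPM in DA libraries and 13110 to 17790 CPM in control libraries. The other 15 markers summed to 1322 to 2283 CPM in DA libraries and 2509 to 3662 CPM in control libraries. These ranges rest largely on Ace, the highest of the 15, named after its values were seen. Ace had 880 ± 397 CPM in DA lungs and 1648 ± 326 CPM in control lungs (SD) and was not called (-0.90, adjusted p = 0.0542 in edgeR). Which cells carried it cannot be told from whole tissue. The number lower was 1 with a term for Y-linked reads, 1 without DA replicate 3, 5 or 6 or control replicate 3, 4, 5 or 6, and 4 without DA replicate 4 or control replicate 2. Of 8 alveolar macrophage markers 2 were lower and 0 higher, Siglec5 and Mrc1 (-1.45 and -0.85, adjusted p = 0.0125 and 0.0266), with sums of 335 to 796 CPM in DA libraries and 573 to 1345 CPM in control libraries. Among these markers 1 was lower with a term for Y-linked reads and 1 without DA replicate 1 or control replicate 4, 5 or 6. The defining gene Marco had 0 counts in all DA libraries and at most 11 in a control. DA replicate 5 and control replicate 6 held the highest alveolar macrophage sum of their groups. The part of these cells in the fall of Ifit1 and Oasl was not tested.

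Plasmacytoid dendritic cells are the main producers of type I interferon. Of 9 tested markers of these cells 2 were lower and 0 higher, with a median log2 fold change of 0.05 and 5 of the 9 above 0. The 2 were Ccr9 and Tcf4 (-1.72 and -0.42, adjusted p = 0.0191 and 0.0394), while Spib and Bcl11a, named after their values were seen, had the highest fold changes and were not called (0.80 and 0.52, adjusted p = 0.438 and 0.688). Their spread in DA lungs was larger than the mean, at 41.0 ± 66.5 CPM for Spib and 5.15 ± 9.73 CPM for Bcl11a (SD). In control lungs they had 23.55 ± 4.28 and 3.595 ± 0.90 CPM. The 2 upward values are therefore weak evidence of a rise. The number lower was 2 with a term for Y-linked reads, 6 without DA replicate 4, 2 without DA replicate 2, and 1 without any other single library. The sums were 131 to 578 CPM in DA libraries and 206 to 360 CPM in control libraries. Klk1 was at 0 in every library. The defining gene Siglech stayed below the filter, with 6, 2, 0, 14, 0 and 0 counts in DA replicates 1 to 6 and 11, 4, 10, 21, 30 and 75 counts in control replicates 1 to 6. The part of these cells in the levels of the antiviral genes was not tested. Of 13 lung epithelial and endothelial markers 1 was higher and 0 lower, also with a term for Y-linked reads. That was the secretory cell gene Scgb3a2, which rose by 2.39 (adjusted p = 0.0119). Without DA replicate 4, 2 were higher, and without DA replicate 2, 2 were lower.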

How the data were processed

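mRNA libraries of 12 rat lungs (6 DA, 6 control) were sequenced on an Illumina instrument, per the labels' protocols. The submitters' processing notes name HISAT2 2.2.1, HTSeq 2.0.2 and the build mRatBN7.2; strand setting and annotation release are not given in the sources used here. The deposited table holds raw read counts per Ensembl gene and, beside them, the authors' FPKM values, per the file headers.

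Groups and replicate numbers follow the labels, which do not say more on how the rats were kept apart, so p-values measure the spread between these libraries. Counts were tested with edgeR 4.0.16 (R 4.3.3): filterByExpr (14517 genes), TMM scaling, two-sided quasi-likelihood F test on the group, Benjamini-Hochberg adjustment over all tested genes, threshold 0.05. CPM are TMM-scaled; log2 CPM use a prior count of 2. Tests on simulated counts recovered known folds. Genes named beyond the 10 were the 2 called genes of lowest adjusted p in each list, 15 genes fixed by name and the 10 most alike by library, each exception being stated; some of these are not reported here. The 10 genes, the lists and the rule were chosen with earlier results of these data known. Of duplicate names the row with more counts was used. Libraries were taken to hold Y-linked reads above 10 CPM.

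Alternatives were DESeq2 1.42.0, upper quartile scaling, no filter, limma 3.58.1 on log2(FPKM + 0.5) for genes averaging 0.1 FPKM or more, a replicate block, voom with quality weights, a term for Y-linked reads, the libraries with or without such reads alone, and leaving out each library. Leaving out control replicate 6 and DA replicate 5 together was chosen after seeing the data.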

Additional observations from a re-analysis of the deposited data

Results flagged for a closer look

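In 18 sets of 6 libraries (9 genes in each group), 11 single values stood apart from the rest of their group. The gap was more than 0.625 of the group's range, which chance passes in about 1 of 20 sets of normally distributed values. The CPM were not checked for that shape and all 11 were the highest of their group, so the rate here may be higher. The genes share these libraries, so the 11 are not independent. In DA lungs, replicate 3 was far above the other libraries in Ifit1 (21.0 CPM), and replicate 5 in Ifit3 (84.5 CPM), Irf7 (103 CPM) and Usp18 (40.0 CPM). In control lungs it was replicate 6 each time, in Ifit2 (126 CPM), Ifit3 (165 CPM), Mx1 (135 CPM), Irf7 (212 CPM), Rsad2 (37.4 CPM), Oasl (41.8 CPM) and Usp18 (40.0 CPM). The quality weights that voom gave these libraries over all genes were 0.96 for DA replicate 3, 0.73 for DA replicate 5 and 1.29 for control replicate 6, against 0.21 to 2.27 over the 12. The lowest weight, 0.21, was that of DA replicate 4, which also had the lowest value of all 12 libraries in 4 of the 9 genes.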

How the results depend on the processing

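Over 22 alternatives for each of the 9 genes, 175 fold changes kept their side of the threshold, 18 lost the call and 5 gained it. The call of Ifit1 held in 21 of 22 and was lost where just the libraries holding Y-linked reads were used. The number of the 9 called lower was 2, and it was 1 under upper quartile scaling, with no filter, with the replicate block, with a term for Y-linked reads and within the libraries without such reads, and 0 within those with them. It was 3 (Ifit1, Ifit3 and Oasl) with DESeq2, limma and voom, and without control replicate 6 and DA replicate 5 together. Leaving out 1 library gave 1 to 3. Those called higher numbered 0 throughout. Of all genes tested, 1090 were lower and 1226 higher. DESeq2 gave 1645 lower and 1888 higher, voom with quality weights 1932 and 2034, a term for Y-linked reads 572 and 549, and the libraries holding Y-linked reads 0 and 0 (496 and 951 at an unadjusted p under 0.05). Without control replicate 6 and DA replicate 5 they numbered 582 and 664. With the replicate block 677 were higher, and 716 among the libraries lacking Y-linked reads. Leaving out 1 library gave 578 to 1461 lower and 578 to 1558 higher. The causes of these shifts were not tested. The labels link same-numbered libraries of the groups by number alone, and whether they share more is not known. The correlation of their deviations was above 0.1 in 3 of 6 pairs (from -0.26 to 0.30), and 3 of 6 correlated best with their own number. The block left the call of Ifit1 (-3.22, adjusted p = 0.0185) and ended that of Oasl (adjusted p = 0.0595). The promoter count was the same, 3 of 5, in the last 150 bases. Values of Siglech, Ifng and Ifnb1 rest on too few counts for a comparison of the groups.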
